A study of Caenorhabditis elegans with 27 samples.

Results

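The transcripts that change over 120 min of auxin were measured in strain AM05, called the TOP-1 strain here. In this strain top-1, the gene of topoisomerase I, carries a degron and GFP (top-1::degron::GFP). The comparison set larvae kept for 120 min on plates with 1 mM of the auxin indole-3-acetic acid against larvae of the same strain on plates without auxin. It used 4 of the 27 libraries of the series, chosen by their strain, stage and auxin time as labelled, 2 on each side and paired by replicate number. The control for auxin and time was strain CA1200 at the same times, also with 2 libraries a side, whose labels name no degron. CA1200 is known as a strain that makes the plant F-box protein TIR1 from the eft-3 promoter in somatic tissue, and auxin brings a degron-tagged protein to TIR1, which marks it for the proteasome. The TIR1 allele of AM05 is not given in the labels. These samples were pools of whole larvae at stages L2 and L3, grown from starved hatchlings, and each culture was divided between auxin plates and plain plates. When the plain-plate part was collected relative to the auxin part is not stated. SS01A (top-2::degron::GFP), called the TOP-2 strain, is set beside the results where the difference between the strains was tested, again with 2 libraries a side.

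Topoisomerase I nicks a single strand of DNA, lets it swivel and reseals it, and so relaxes the supercoils that an RNA polymerase leaves ahead of and behind itself. Torsion builds up most in long transcription units, and loss of the enzyme is known in mammalian cells to hold back transcription of long genes. In C. elegans, condensin DC binds the X chromosomes of hermaphrodites and lowers their transcription as part of dosage compensation, and the study asked how topoisomerases bear on its movement along X.

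Poly(A) RNA was sequenced in stranded libraries. The 4 libraries held an estimated 12.9 to 20.4 M fragments, within the 5.7 to 21.3 M of the series, and listed 11493 to 12024 genes at 1 TPM (transcripts per 1 M, a level corrected for gene length) or more. Levels below are TPM scaled between libraries (scaled TPM), changes are log2 of scaled TPM plus 1, and each ± beside a change is its standard error. Called genes had an adjusted p under 0.05 from limma (moderated variances, Benjamini-Hochberg adjustment over 14271 genes), in a fit over all 27 libraries that keeps each replicate series as a block. Another 6 libraries of the series stood apart with a median TPM of 5.1 to 6.83 against 1.27 to 2.53. None of them is from AM05 or CA1200, but they share in the variance. Of the 6, 4 are replicate 1 of the TOP-2 strain, and the others are L2 and L3 larvae of a further strain, AM01. Libraries of mixed larvae of AM01 were also in the fit and also share in the variance. The degron acts on the protein, which these RNA libraries do not measure, so the depletion was not checked here. The top-1 transcript does not check it either. It stood at 28.5 and 41.6 in the 2 libraries without auxin and 21.9 and 28.7 after 120 min, with adjusted p = 0.0756. The labels call the replicates biological without saying whether cultures were separate, so p-values speak only for these samples. With the block, the spread they measure is what remains once the level of each replicate series is taken out. It is shared over all strains and is not the spread between replicates.

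At 120 min the TOP-1 strain had 1641 higher and 1638 lower genes, 11.5% of those tested in each direction, and 797 and 752 of these changed by more than 2-fold. The median change was 0.99 among the higher genes, -0.95 among the lower genes and 0.04 over all genes tested. In CA1200 the same interval gave 184 higher and 135 lower genes, 1.29% and 0.946% of those tested. The change of the TOP-1 strain was more positive than that of CA1200 in 79 genes (0.554%) and more negative in 171 (1.2%), or 1.75% in either direction, of which 76 and 168 were also called in the TOP-1 strain with the same sign. The fit without the replicate block called 119 genes higher (0.834%) and 159 lower (1.11%), all of them among the 3279 called with it, and called no difference from CA1200. Each of the 4 AM05 libraries left out in turn lowered the 2 counts to between 782 and 1002. Each of the 8 AM05 and CA1200 libraries left out in turn lowered the counts that differed from CA1200 by more than 1.5 times, to as few as 3 and 5 without the 120 min replicate 2 of CA1200. For the same 2 groups the authors' deposited table has 480 genes at an adjusted p under 0.05, and 468 of these were called here in the same direction.

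The lower genes were more often long, and the long genes among them autosomal. Genes of the longest 10% by genomic span (7742 bp or more) made up 556 of the 1638 lower genes and 41 of the 1641 higher genes. Among the 1201 long autosomal genes 542 fell, or 45.1%, and 18 rose. Their median change was -0.51, and it was -0.62 in the replicate 1 pair and -0.44 in the replicate 2 pair. In CA1200 the same genes had medians of -0.09 and 0.01 in the 2 pairs. Of the 171 genes with a more negative change than in CA1200, 118 were long autosomal genes, and of the 79 with a more positive change none was among the longest 10%. The classes by span, position and name used below were chosen after values had been seen, so they describe the calls and carry no test.

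The fall deepened with span on the autosomes. Autosomal genes of 1 to 2 kb had a median change of 0.15 (n = 3321), those of 5 to 7.5 kb -0.20 (n = 1142), those of 10 to 15 kb -0.50 (n = 474) and those of 15 kb or more -0.83 (n = 281). The share called lower went from 5.57% at 1 to 2 kb to 61.6% at 15 kb or more. The share called higher went the other way, from 15.4% to 0.712%. Genes of 15 kb or more had medians of -0.30 and -0.25 in the 2 pairs of the TOP-2 strain.

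At 120 min the median change of long X-linked genes was near 0, and it was lower at the earlier times. The 36 X-linked genes of 15 kb or more had a median change of -0.04, with -0.15 and 0.02 in the 2 pairs, against -0.91 and -0.67 for autosomal genes of that span. At 30 and 60 min the 36 X-linked genes had medians of -0.30 and -0.13, and autosomal genes of that span -0.62 and -0.74. Of all 227 X-linked genes among the longest 10%, 14 were called lower, or 6.17%, and 23 higher, or 10.1%. Of the 36, 2 were called lower, or 5.56%, and 4 were called higher. The longest of them, gap-2, a Ras GTPase-activating protein gene of 43977 bp, stood at 34.5 and 25.9 without auxin and 29.3 and 24.3 after 120 min, a change of -0.16 ± 0.18 (adjusted p = 0.568). The calcium channel gene unc-2, of 37196 bp, stood at 50.6 and 29.6 and then 35.2 and 28, a change of -0.29 ± 0.20 (adjusted p = 0.311). These levels overlap between the 2 sides, and both genes were picked for their span. The 2 of the 36 that fell were R193.2, with a change of -1.66, and C17H11.6, with -0.60. Among the 4 that rose were rgs-2, a regulator of G protein signalling, with 0.58, and ZK1073.2 with 0.75. In each of the 9 span classes the X-linked median was above the autosomal median. Both pairs of the TOP-1 strain gave this order in each class from 0.6 kb upward.

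**Figure D1:**
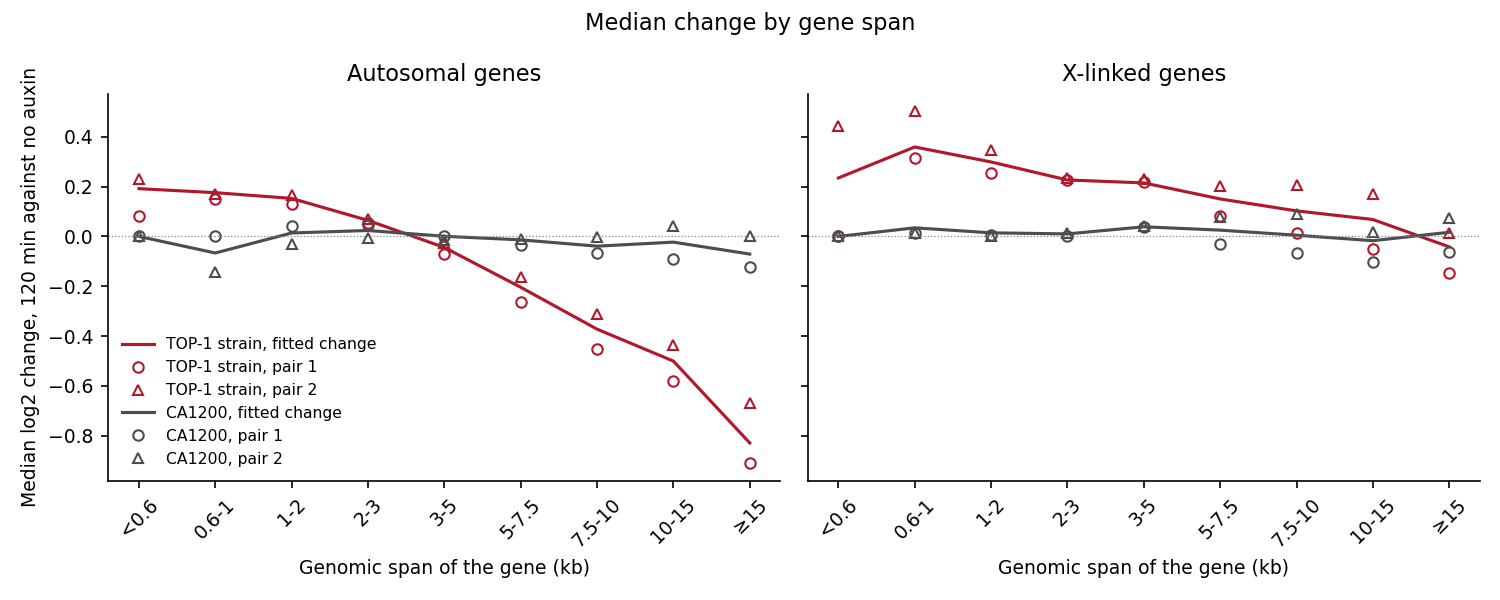
Median log2 change after 120 min against no auxin (vertical axis) by genomic span of the gene in kb (horizontal axis), for autosomal genes on the left and X-linked genes on the right, with lines for the fitted change and points for each replicate pair. In the TOP-1 strain the autosomal medians run from 0.19 under 0.6 kb to -0.83 at 15 kb or more and the X-linked medians from 0.23 to -0.04, while in CA1200 the autosomal median at 15 kb or more is -0.07.

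Medians were lower with more intron sequence and with more exon sequence. Among autosomal genes with 1 to 2 kb of exon sequence, the median change was 0.13 with 0.5 kb of introns or less (n = 1486), -0.07 with 2 to 4 kb (n = 773), -0.28 with 4 to 8 kb (n = 391) and -0.49 with more than 8 kb (n = 140). The share called lower in those 4 classes was 7.2%, 14.4%, 30.2% and 45.7%. Among autosomal genes with under 1 kb of introns, the median went from 0.17 with up to 1 kb of exon sequence to -0.08 with more than 4 kb (n = 63), and 7.94% of the latter were called lower. The median with more than 4 kb of exon sequence was thus close to that with 2 to 4 kb of introns. X-linked genes with 1 to 2 kb of exon sequence had medians of 0.19 with the least introns and 0.17 with more than 8 kb (n = 29). Long autosomal genes between 2 and 100 scaled TPM had medians between -0.54 and -0.60. Below 2 scaled TPM the median was -0.21 and above 100 it was -0.24, and the change on this scale is understated in genes with low TPM.

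The share of lower genes was higher toward the ends of the autosomes. With each chromosome divided into 5 parts of equal length, 21% of autosomal genes in the 2 outer parts fell against 9.22% of those in the 3 inner parts. Among long autosomal genes the shares were 62.3% and 29.6%, with medians of -0.78 and -0.35. The left end of chromosome I had the largest share of the 30 parts, 30.5% of 351 genes, against 9.36% in its middle part. The right end of chromosome V stood at 18.1% against 4.09% in the middle, while its left end stood at 8.59%. On X no part passed 6.56%. Of the 171 genes that fell more than in CA1200, 147 lay in the outer parts of autosomes, which hold 3713 of the 14271 genes tested.

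**Figure D2:**
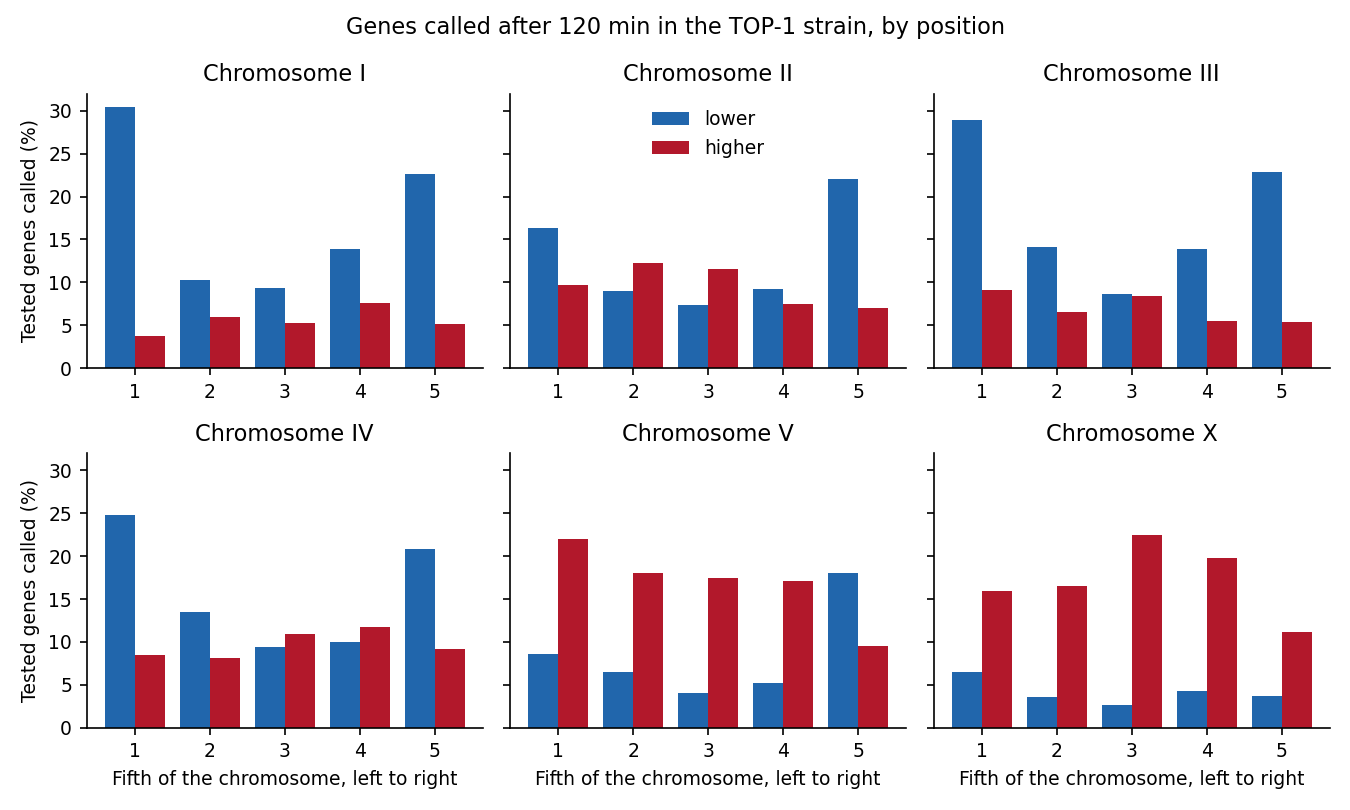
Share of tested genes called lower (blue) and higher (red) after 120 min in the TOP-1 strain, in percent (vertical axis), in each of 5 equal parts of each chromosome from left to right (horizontal axis). On chromosomes I to IV the lower genes peak in the outer parts, on V in the right part, and on X the higher genes exceed the lower genes in every part.

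A further feature of the lower genes was the clone from which their sequence name comes. Names that start with Y and a digit belong to genes first sequenced from yeast artificial chromosomes, which covered the regions that cosmid clones did not. Such genes were 16.8% of those tested, 36.7% of the lower genes and 9.87% of the higher genes. At equal span they fell further: among autosomal genes of 15 kb or more the median was -1.12 with such a name (n = 108) and -0.60 without (n = 173). At 5 to 7.5 kb the medians were -0.43 and -0.16. Among long autosomal genes of the inner parts 45.2% of the genes with such a name fell and 27% of the others, and in the outer parts 68.6% and 50.5%.

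Lower genes also stood next to each other. Among autosomal genes of 10 to 15 kb, 28.8% fell where neither neighbouring tested gene fell (n = 299), 64.7% where 1 did (n = 133) and 85.4% where both did (n = 41). Short genes followed the same order, as autosomal genes under 2 kb fell in 3.43%, 9.47% and 18.6% of cases. There were 34 runs of at least 4 adjacent tested genes that all fell, with 171 genes in total and none on X. In some of them CA1200 fell too, as in 4 hsp-16 genes, with medians of -6.85 in the TOP-1 strain and -5.15 in CA1200. From eat-3 to ttll-12 on chromosome II these medians were -0.77 and -0.72, and in the longest run -1.40 and -0.19. The longest run held 11 genes on chromosome V from 17936733 to 18077432, by the coordinates of the files (of a build that these sources do not state), and reached from dpy-21 to nova-1 with changes between -1.93 and -1.08. In that run gck-3, a kinase gene of the SPAK family, fell from 33.9 and 28.4 to 10.6 and 11.7 and prp-6, of the spliceosome, from 29 and 28.8 to 10.5 and 11.7. In CA1200 gck-3 stood at 22.4 and 31.6 and then 23.2 and 28.2, and prp-6 at 23.4 and 30.8 and then 19.6 and 23.6. The short gene Y59A8B.25 of 1621 bp, also in the run, fell from 15.9 and 20.015 to 5.86 and 5.57, a change of -1.49 ± 0.21 (adjusted p = 0.000539). In each of these 3 genes the libraries after 120 min lie below both without auxin, as in 20.5% of all genes tested. The genes of the runs were picked from their calls.

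The next run, of 9 genes on chromosome II from 13340554 to 13428908, held top-3B, the gene of topoisomerase III beta, which acts on single strands and on RNA. It fell from 13 and 14 to 1.92 and 4.26, a change of -1.88 ± 0.20 (adjusted p = 0.000109), against 10.2 and 14.3 and then 8.63 and 10.9 in CA1200. Its change differed from that of CA1200 by -1.59 ± 0.29 (adjusted p = 0.0211), and it was named after its values were seen. The topoisomerase gene top-2 stood at 20.2 and 20.044 and then 16.6 and 18, which did not pass the test (adjusted p = 0.453). The repair gene tdpt-1, which is not a topoisomerase and is named for DNA-bound tyrosyl ends, changed by -0.36 (adjusted p = 0.318). A run of 6 genes on chromosome III from 230433 to 289438 held phkg-1 and xpd-1, the gene of a TFIIH helicase, which fell from 7.62 and 11.4 to 1.07 and 3.02.

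By a rule that asked for a call with and without the block, the same sign in both pairs, a call in the difference from CA1200 and a level of at least 5 scaled TPM, 16 genes rose and 71 fell. None of the 71 was X-linked, 54 were among the longest 10% and 65 lay in outer parts. The 15 largest falls ran from -2.33 to -1.90, and in all 15 both libraries after 120 min were below both libraries without auxin and below all 4 CA1200 libraries. The same was so of 8.89% of all genes tested, and the 15 were chosen for their change and its difference from CA1200. Their spans ran from 4741 to 43209 bp, and introns took 53.8% to 92.4% of the gene. The largest fall was in phkg-1 (Y50D7A.3; III, 254533 to 264395), the catalytic subunit of phosphorylase kinase, which went from 25.4 and 26.6 to 3.02 and 6.13. In CA1200 phkg-1 stood at 26 and 28.7 without auxin and 18.6 and 19.5 after 120 min. Its change was -2.33 ± 0.26 (adjusted p = 0.000144), and it differed from that of CA1200 by -1.84 ± 0.37 (adjusted p = 0.0314).

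Further falls of the 15 were in genes with different known roles, which were not tested as groups. The gene uaf-1 (III, 1062781 to 1076545), the large subunit of the splicing factor U2AF, fell from 98 and 82.5 to 21.1 and 21.2, a change of -2.04 ± 0.15 (adjusted p = 2.11e-05), against -0.30 in CA1200. The gene emb-4, which encodes an intron-binding helicase of the spliceosome and spans 34690 bp, fell from 27.3 and 29.5 to 4.93 and 7.98. For emb-4 the CA1200 libraries went from 19.2 and 35 to 12.1 and 19.5, with both libraries after 120 min above those of the TOP-1 strain. The gene gbf-1, an exchange factor for Arf GTPases, fell from 27.1 and 53.8 to 4.56 and 11.1 and was at 29.4 and 31.1 and then 21.5 and 34.5 in CA1200. The longest gene of the 71, herc-1, of the HECT ubiquitin ligase family (I, 1211492 to 1254700), fell from 12.7 and 16.3 to 1.95 and 3.51. A gene of unknown role, Y48E1B.3 (II, 13547178 to 13567929), fell from 19.2 and 18.4 to 3.07 and 3.12 while CA1200 stood at 19.1 and 21.8 and then 16.7 and 19.2. Nearby, the longevity gene ddl-2 and the mitochondrial GTPase gene noa-1 also fell, with changes of -2.02 and -1.90.

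The potassium channel gene slo-1 (V, 18492236 to 18508169) fell from 14.9 and 7.46 to 2.56 and 1.73 and was at 7.89 and 11.1 and then 7.45 and 11.1 in CA1200. The transporter gene snf-6 (III, 1520215 to 1532760), which acts at the neuromuscular junction, fell from 10.4 and 9.71 to 1.54 and 1.97. The microtubule end-binding gene ebp-3 fell from 31.5 and 36.3 to 7 and 9.45. It has a close copy, ebp-1, in the same run on chromosome V, so its single value is uncertain. The others of the 15 were tcc-1 at -2.25, tsct-2 at -2.19, Y64G10A.7 at -2.09 and hpo-29 at -1.96. Among the 8 longest genes that met the rule, daf-2, the insulin and IGF-1 receptor gene (III, 2995754 to 3028792), fell from 13.4 and 17.1 to 3.25 and 4.92 and was at 13.6 and 16.9 and then 11.3 and 22.5 in CA1200. Its change was -1.68 ± 0.23 (adjusted p = 0.000416). The nuclear pore gene npp-8 had a change of -1.43, the phospholipid flippase gene tat-1 -1.34, and Y69A2AR.16 and Y92H12A.5 -1.73 and -1.29.

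**Figure D3:**
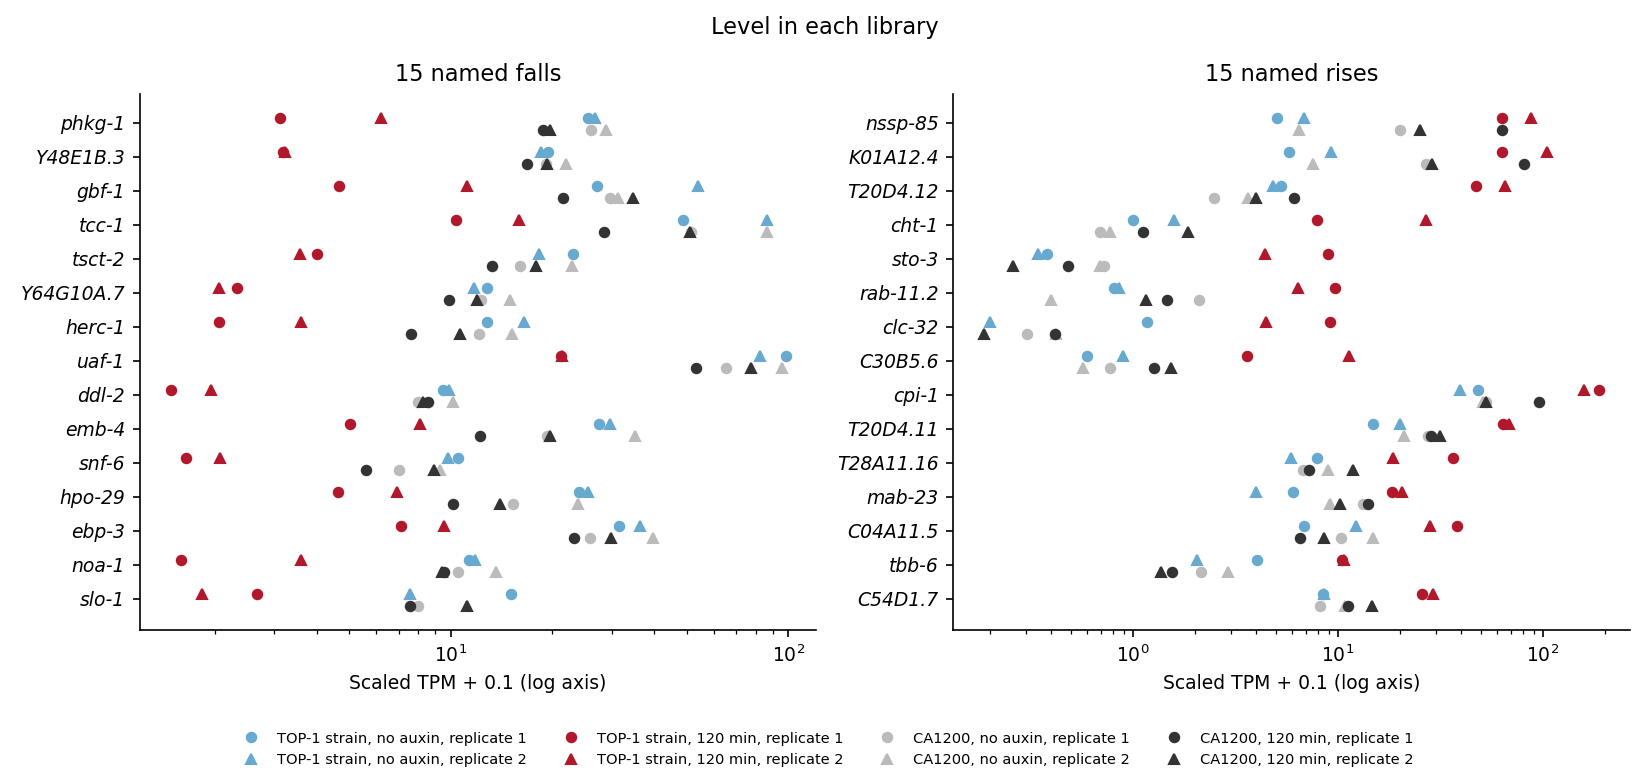
Level of the 15 named falls (left) and the 15 named rises (right) in each library as scaled TPM plus 0.1 on a log axis, with circles for replicate 1 and triangles for replicate 2. The TOP-1 libraries after 120 min lie outside both TOP-1 libraries without auxin in all 30 genes, and outside all 4 CA1200 libraries in all 15 falls and in 13 rises. The genes were chosen for these changes, and of all genes tested 20.5% lie below and 23.6% above both libraries without auxin, with 8.89% and 8.51% also beyond all 4 CA1200 libraries.

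The genes that rose by the same rule were short. The 15 largest rises ran from 1.58 to 3.47, spanned 405 to 2415 bp and included 6 genes on X and 6 on V. The chitinase gene cht-1 (X, 3397593 to 3400007) rose from 0.903 and 1.49 to 7.84 and 26.8, a change of 2.85 ± 0.29 (adjusted p = 8.12e-05), and was at 0.588 and 0.677 and then 1.01 and 1.76 in CA1200. The stomatin gene sto-3 (X, 11619979 to 11621929) rose from 0.279 and 0.246 to 8.86 and 4.3, against 0.625 and 0.589 and then 0.384 and 0.16 in CA1200. The gene cpi-1, a cystatin that inhibits cysteine proteases, rose from 48 and 39.4 to 188 and 159. The beta-tubulin gene tbb-6 rose from 3.95 and 1.96 to 10.4 and 10.6. The male tail regulator gene mab-23 rose from 5.95 and 3.89 to 18.2 and 20.3 and the GTPase gene rab-11.2 from 0.713 and 0.754 to 9.59 and 6.26. The neighbours T20D4.12 and T20D4.11 on chromosome V rose from 5.15 and 4.71 to 46.9 and 64.9 and from 14.7 and 20.02 to 63.5 and 68.2.

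The largest rises, in nssp-85 (X, 8731221 to 8731859) by 3.47 ± 0.23 and in K01A12.4 (X, 8610879 to 8611283) by 3.32 ± 0.23, also rose in CA1200, by 1.71 and 1.69. The TOP-1 strain had nssp-85 at 4.96 and 6.71 and then 62.7 and 87, and CA1200 at 20.1 and 6.36 and then 62.8 and 25.1, so the libraries after 120 min overlap between the strains. The 2 genes had near-equal levels in each library, and whether they share reads was not tested. C04A11.5 and C54D1.7, both on X, rose by 1.74 and 1.58, and clc-32, C30B5.6 and T28A11.16 by 2.28, 2.18 and 1.80.

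More of the named falls than of the named rises were called at 30 min. These earlier times share the no-auxin libraries with the 120 min comparison, by which the named genes were chosen. Their calls at 30 and 60 min are thus not independent of that choice and only describe the course. Of the 15 falls 13 were called lower at 30 min, where 3.15% of all genes tested were, and 15 at 60 min, against 8.03%, with medians of -0.82, -1.49 and -2.04 at 30, 60 and 120 min. Of the 15 rises 4 were called higher at 30 min and 13 at 60 min, against 1.74% and 6.63% of all genes, with medians of 0.49, 1.14 and 2.18. Over all genes tested 4.89% were called at 30 min and 14.7% at 60 min. The gene slo-1 was at -1.54 at 30 min and -2.07 at 60 min, against -1.90 at 120 min, and ddl-2 at -1.39 and -1.94. By contrast clc-32 was at -0.20 and -0.07 and tbb-6 at -0.17 and 0.35. Long autosomal genes as a class had medians of -0.44, -0.51 and -0.51 at the 3 times, and X-linked genes 0.10, 0.17 and 0.22.

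**Figure D4:**
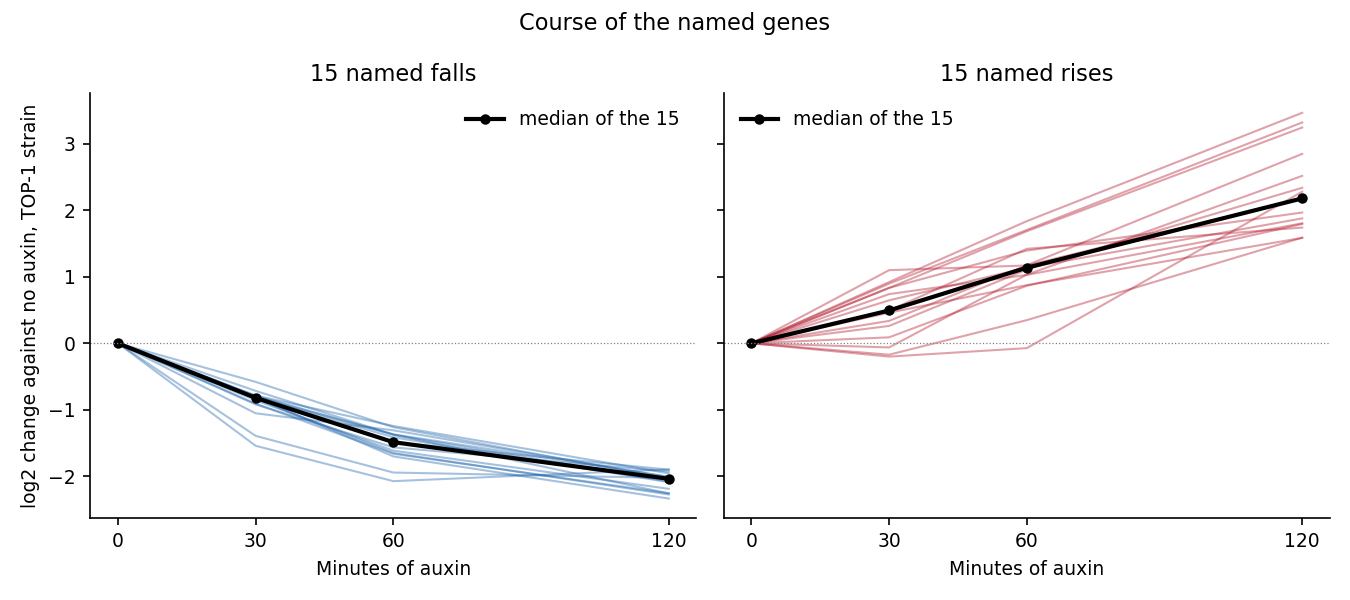
Fitted log2 change against no auxin in the TOP-1 strain (vertical axis) at 30, 60 and 120 min of auxin (horizontal axis) for each of the 15 named falls and 15 named rises, with the median in black. The falls have a median of -0.82 at 30 min, and the rises pass a median of 1 only by 60 min.

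X-linked genes rose more often than they fell. Of 2227 X-linked genes 389 rose and 92 fell, 17.5% and 4.13%, against 10.4% and 12.8% of 12044 autosomal genes. The median change on X was 0.22, with 0.17 and 0.26 in the 2 pairs, and 68.7% of X-linked genes had a positive change against 52.5% in CA1200. The autosomal median was 0.01 and the X-linked medians in CA1200 were 0.00 and 0.03. With 2 libraries a side an exact permutation of the labels cannot give a p under 0.333, so no test of the chromosome was made. The rise was spread over levels, with medians between 0.17 and 0.27 in 5 classes of scaled TPM. It was largest in the middle part of X, at 0.34, and 0.13 and 0.15 at the ends. In the TOP-2 strain X-linked genes had medians of 0.21 and 0.17 in its 2 pairs, where no single gene was called at 120 min (by limma, with 1439 genes at an unadjusted p under 0.05). The TOP-1 change was more positive than the TOP-2 change in 78 genes (0.547%) and more negative in 160 (1.12%), or 1.67% in either direction. These counts rest in part on replicate 1 of the TOP-2 strain, which stood apart.

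Chromosome V was the autosome with an upward shift. Of its 3031 tested genes 521 rose and 229 fell, 17.2% and 7.56%, with a median of 0.16 (0.12 and 0.18 in the 2 pairs; 0.05 and 0.03 in CA1200). Chromosomes I and III had medians of -0.07 and -0.08, with 15.9% and 16.46% of their genes lower.

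Genes of the machinery that the study was about fell in part. Of 10 dosage compensation genes 4 fell and none rose, or 40% lower beside the 11.5% of all genes. Of the 10, 5 were among the longest 10% of genes, with 3 of the 4 that fell. The demethylase gene dpy-21, which makes a histone methylation mark of the compensated X, fell from 27.8 and 28.3 to 8.02 and 8.04, a change of -1.69 ± 0.25 (adjusted p = 0.000765, or 0.143 without the block). In CA1200 dpy-21 was at 14.8 and 23.5 and then 12.9 and 22.4, and the difference of -1.56 ± 0.36 had adjusted p = 0.0479. Of the condensin DC subunits, dpy-28 fell from 8.28 and 10.9 to 4.02 and 3.94, dpy-27 from 16.6 and 18.2 to 12.7 and 10.2 and mix-1 from 14.4 and 14.6 to 10.0 and 10.1, with changes of -1.08, -0.57 and -0.49. None of these 3 was called without the block or in the difference from CA1200. Values for dpy-26 (-0.13), capg-1 (0.03), sdc-2 (0.40) and sdc-3 (0.00) did not pass. None of the 4 genes of condensins I and II was called. Of 12 cohesin genes the 3 that fell were the long genes smc-3 (-0.86), scc-2 (-0.82), the loader, and evl-14 (-0.76).

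Of 39 genes of RNA polymerase II and its factors 9 fell and 1 rose, or 23.1% and 2.56%. Of all genes tested 11.5% were called in each direction. Of the 39, 5 were long genes, with 4 of the 9 that fell. The median change of the 39 was -0.22 (-0.21 in CA1200). The TFIID subunit gene taf-1 fell from 9.43 and 9.06 to 2.3 and 2.89, the elongation kinase gene cdk-9 from 15.4 and 12.9 to 5.67 and 6.76 and the elongation factor gene spt-4 from 21.7 and 32.3 to 8.19 and 11.7. Their changes were -1.52, -1.07 and -1.35, and the CA1200 changes -0.24, -0.05 and -0.52. The gene ama-1 of the largest polymerase subunit and the elongation factor gene ell-1 also fell, with changes of -0.66 and -0.71. None of the 39 was called in the difference from CA1200.

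Of 49 DNA damage and repair genes none fell, and 1 rose, rad-54.L, from 0.403 and 0.755 to 0.894 and 1.65. Of 34 replication and cell cycle genes 1 rose, cdk-4, from 5.13 and 2.34 to 8.42 and 3.96. Both shares lie below the 11.5% of all genes called higher. Of 73 histone genes 10 rose and 7 were higher in CA1200, and many core histone genes are near-identical copies. The linker histone gene hil-3, on X, rose from 48.2 and 26.2 to 183 and 87.3, against 29 and 41.2 and then 56.6 and 96.3 in CA1200. None of the 75 ribosomal protein genes was called, and all 75 had a positive change with a median of 0.19 (0.22 and 0.17 in the pairs), against -0.18 in CA1200, whose pairs had opposite signs (0.07 and -0.40).

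The 7 genes with the largest falls of all were heat shock genes, and many of this list fell in CA1200 too. Of 24 heat shock genes 21 fell and 1 rose in the TOP-1 strain and 14 fell in CA1200, with medians of -3.19 and -2.42. The DnaJ co-chaperone gene dnj-13 of the TOP-1 strain went from 646 and 371 to 14.4 and 16.7 here and from 229 and 414 to 21.1 and 20.3 in CA1200. Its CA1200 change of -3.83 did not pass (adjusted p = 0.054). The HSP70 genes F44E5.4 and F44E5.5 are near-identical, as are hsp-16.1 and hsp-16.11, so reads may be split within each pair. The gene hsp-16.1, of a small heat shock protein, went from 6543 and 5162 to 70.2 and 25.8, and from 2963 and 3269 to 205 and 36.5 in CA1200. The summed level of the 24 genes in the TOP-1 strain was 37266 and 27812 without auxin, and 2413 and 2223 after 120 min. The CA1200 sums were 15187 and 21668 without auxin, and 2631 and 1833 after 120 min. The sums after 120 min overlap between the strains, and those without auxin do not. The sole member called in the difference from CA1200 was unc-45, a long gene of a myosin chaperone, which fell from 26.3 and 30.3 to 11 and 11.9. Auxin, the wash and the time on plates cannot be told apart in these falls.

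Folding genes of the endoplasmic reticulum and of mitochondria were listed apart. Of 18 genes of the endoplasmic reticulum unfolded protein response 7 fell in the TOP-1 strain and none in CA1200. Of all genes tested 11.5% and 0.946% were lower in the 2 strains. The medians of the 18 were -0.48 in the TOP-1 strain and -0.23 in CA1200. None of the 18 was called in the difference from CA1200. The BiP chaperone gene hsp-4 fell from 354 and 445 to 18 and 32.7, a change of -3.97 ± 0.45 (adjusted p = 0.000152, or 0.0593 without the block), and CA1200 went from 129 and 166 to 65.2 and 38.4. The difference of -2.45 ± 0.64 did not pass (adjusted p = 0.0807). The stress kinase gene pek-1 fell from 27.3 and 34.3 to 10.2 and 10.1 and, in CA1200, had 15.2 and 27.2 and then 8.24 and 8.69. Of 8 genes of the mitochondrial response the 2 that fell were the chaperone genes hsp-60 and hsp-6, with -1.83 and -1.41, while 5 of the 8 had a positive change and the median was 0.20. Of 13 hypoxia and sulfide genes 4 fell and 1 rose: the gene rhy-1, which acts upstream of HIF-1, fell from 34.1 and 31.3 to 5.9 and 4.14, against 21.2 and 17.6 and then 13.6 and 7.54 in CA1200. At 30 min rhy-1 was already at -3.75. The sulfur dioxygenase gene ethe-1 rose by 1.14.

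Of the 4 detoxification lists, each had a larger share of higher genes in the TOP-1 strain than the 11.5% of all genes tested. In the TOP-1 strain 23 of 62 cytochrome P450 genes, 20 of 63 UDP-glucuronosyltransferase genes, 13 of 44 glutathione transferase genes and 8 of 33 dehydrogenase genes rose, and 1, 2, 2 and 1 fell. In CA1200, where 1.29% of all genes were higher, the genes that rose numbered 8, 12, 1 and 3. No member of these 4 lists differed from CA1200 in its change. The gene ugt-14 rose from 0.348 and 0.512 to 11.8 and 6.06, and in CA1200 from 0.156 and 0.136 to 4.85 and 6. The alcohol dehydrogenase gene adh-1 rose from 99.6 and 67.8 to 1186 and 728, and in CA1200 from 284 and 153 to 1355 and 1122. The cytochrome P450 gene cyp-35C1 rose from 1.91 and 7.95 to 52.9 and 34, a change of 3.09 beside 4.70 in CA1200. The median over the glutathione transferases was 0.64 in the TOP-1 strain and 0.01 in CA1200. The gene gst-12 was at 0.784 and 1.88 and then 7.83 and 7.13, and at 1.91 and 2.27 and then 2.63 and 2.53 in CA1200, and the difference did not pass (adjusted p = 0.247). Of 10 metal response genes 5 rose, or 50% beside the 11.5% of all genes, and 1 fell. In CA1200 4 of the 10 rose, and none was called in the difference between the strains. The metallothionein gene mtl-1 rose from 13.9 and 10.5 to 320.3 and 308, and in CA1200 from 116 and 15.2 to 1571 and 538.

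Nuclear hormone receptors, transcription factors that bind small lipophilic molecules, formed the largest list. Of 203 tested 58 rose and 12 fell, and 164 had a positive change, with a median of 0.44 (0.61 and 0.33 in the pairs) against 0.27 in CA1200, where 5 rose and 4 fell. The gene nhr-62 rose from 1.6 and 2.87 to 18.3 and 12.9, and in CA1200 from 3.47 and 2.52 to 23.3 and 23.8. The largest fall was in nhr-17 on X, from 108 and 71.8 to 8.84 and 5.52, and in CA1200 from 38.8 and 54.4 to 6.15 and 6.33. The sole receptor gene called in the difference from CA1200 was nhr-265, by 1.58 ± 0.36 (adjusted p = 0.0465).

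Metabolic genes of the methionine cycle and of fat synthesis fell. Of 19 one-carbon and propionate genes 11 fell, or 57.9% beside the 11.5% of all genes, and 3 rose. In CA1200 6 of them fell. The medians of the 19 were -0.86 in the TOP-1 strain and -0.60 in CA1200, and none was called in the difference. The methionine synthase gene metr-1 fell from 104.02 and 310.4 to 15.1 and 54.2, a change of -2.60 ± 0.17, and in CA1200 from 87.6 and 149 to 23.1 and 55. Replicate 2 was the higher one at both times and in both strains. The S-adenosylmethionine synthetase gene sams-1 fell from 625 and 634 to 199 and 243, against a CA1200 change of -0.60 that did not pass. Of 23 fatty acid genes 10 fell and 1 rose, and 1 fell in CA1200. The desaturase gene fat-6 fell from 343 and 364 to 76.8 and 75.1, and in CA1200 was at 250.1 and 353 and then 224 and 125. The acyl-CoA dehydrogenase gene acdh-1 fell from 367 and 725 to 59.1 and 177 and, in CA1200, from 563 and 394 to 182 and 100.4. The fatty acid gene called in the difference from CA1200 was pod-2, of acetyl-CoA carboxylase, by -1.49 ± 0.32. Of 23 insulin signalling and FOXO target genes, 2 rose and 2 fell, and daf-2 was the signalling gene that fell, with the rest among the targets.

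**Figure D5:**
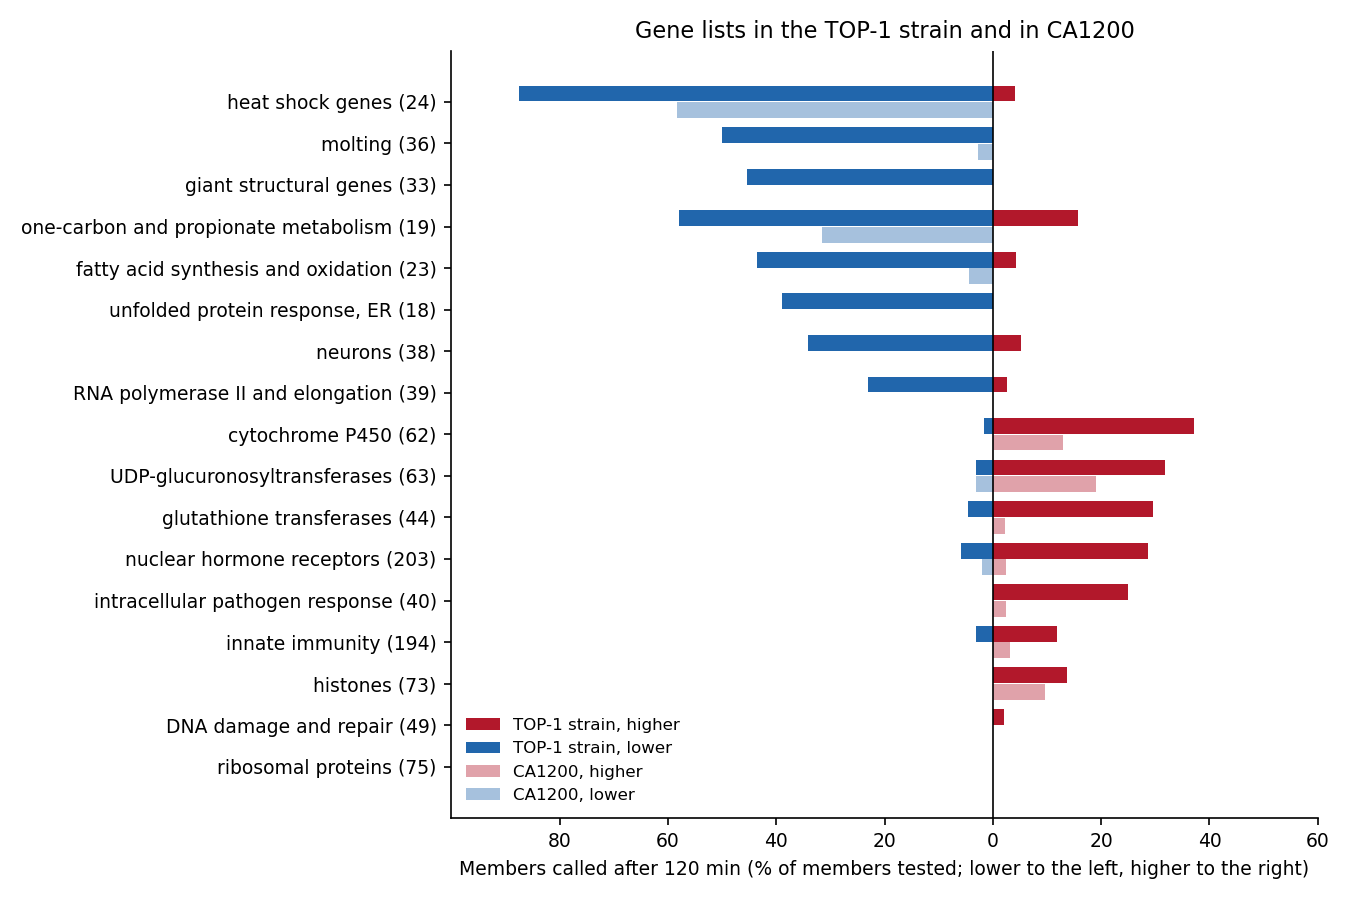
Share of the tested members of each gene list called lower (bars to the left) and higher (bars to the right) after 120 min, in percent, with the number tested in brackets, dark bars for the TOP-1 strain and pale bars for CA1200. Heat shock, cytochrome P450 and UDP-glucuronosyltransferase genes have calls in both strains and glutathione transferases 1 call in CA1200. Molting, giant structural and neuron genes fall in the TOP-1 strain with at most 1 call each in CA1200. The change itself was more negative than in CA1200 in 3 molting genes, 1 giant structural gene and 1 neuron gene.

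Genes of molting and of giant structural proteins fell in the TOP-1 strain. Of 36 molting genes 18 fell and none rose, with a median of -0.93, and 1 fell in CA1200, where the median was -0.27. The change was more negative than in CA1200 in 3 of the 36, or 8.33%, beside 1.2% of all genes tested. The 14 apical matrix genes of the list had medians of -1.29 in the TOP-1 strain and -1.06 in CA1200. The protease inhibitor gene mlt-11 went from 30.8 and 437 to 2.24 and 30.4, and in CA1200 from 116 and 211 to 42.2 and 167. The no-auxin library of replicate 2 held far more mlt-11 than that of replicate 1, and mlt-11 was lower after 120 min in both pairs. Its change of -3.55 ± 0.36 had adjusted p = 8.85e-05, or 0.302 without the block, and differed from CA1200 by -2.66 ± 0.52 (adjusted p = 0.0259). The Patched-related gene ptr-18 went from 37.8 and 141 to 4.12 and 21.4, and in CA1200 from 59.6 and 24.5 to 34.9 and 50.5. The summed level of the molting genes was 1283 in replicate 1 and 7850.5 in replicate 2 without auxin, and 651 and 2998 after 120 min. The list's median in CA1200 was -0.77 in the replicate 1 pair and -0.01 in the replicate 2 pair. These genes cycle with each larval molt, and the part of stage in their change was not tested. The period-like gene lin-42 and the fibrillin-like gene fbn-1 fell, with changes of -1.96 and -2.28, where CA1200 had -0.26 and -1.91. All 6 furrow collagen genes fell, with a median of -1.55, but none was called without the block or in the difference from CA1200. Their CA1200 medians were -1.35 and -0.21 in the 2 pairs. Of 115 other col genes 11 rose and 5 fell. The collagen gene col-96 rose from 1.34 and 0.111 to 28.3 and 3.39 and differed from CA1200 by 3.05 ± 0.48 (adjusted p = 0.0121). Medians over the 132 collagen genes were -0.63 and 0.62 in the 2 pairs, of opposite sign.

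Of 33 giant structural genes 15 fell and none rose, and 14 of the 15 were among the longest 10%. The change was more negative than in CA1200 in 1 of the 33, or 3.03%, beside 1.2% of all genes tested. The spectraplakin gene vab-10, of 44692 bp, fell from 200.1 and 104.46 to 46 and 38.8, a change of -1.75 ± 0.20 (adjusted p = 0.000138, or 0.0982 without the block), against 85.2 and 127 and then 79.5 and 103.79 in CA1200. The nuclear anchorage gene anc-1 fell from 67.9 and 36 to 17.9 and 14.3, and was at 31.1 and 27.7 and then 36.6 and 39.7 in CA1200. The titin gene ttn-1, of 81719 bp, and the twitchin gene unc-22 fell, with -0.93 and -1.06. The 4 X-linked members, him-4, spc-1, let-2 and lam-2, had -0.14, -0.43, -0.22 and 0.16, and none passed. The list was put together for length, so its direction repeats that of long genes.

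Of the marker lists of cell types, that of neurons had the largest share of lower genes, 34.2% beside the 11.5% of all genes. Of 38 neuron genes 13 fell and 2 rose, and 1 had a more negative change than in CA1200. Of the 38, 17 were among the longest 10% of genes, with 7 of the 13 that fell, against 5 of 24 muscle genes and 0 of 15 intestine genes. Those that fell included the kinesin gene unc-104, from 29.7 and 18.3 to 14.6 and 6.6, the vesicle priming gene unc-13, with -0.93, and the touch channel gene mec-4 on X, with -1.03. The 2 that rose were the synaptobrevin gene snb-1, of 952 bp, by 0.58, and the X-linked potassium channel gene egl-36, by 0.92. Of 24 body wall muscle genes 4 fell and 1 rose, of 15 intestine genes 3 fell, and of 16 hypodermis and seam genes 3 fell and 2 rose. Of 71 genes of the pharynx list 7 fell and 9 rose. All of these calls were among its 58 abu and pqn genes, and none of its 13 other markers was called. The LIM domain gene unc-95 of muscle fell from 51.4 and 24.1 to 16 and 12.8 and the peptide transporter gene pept-1 of the intestine from 20.4 and 20.1 to 7 and 9.68. In whole larvae, fewer cells of a type and less RNA per cell cannot be told apart. Of 22 germline genes 1 rose and of 14 tested oocyte and embryo genes none was called. Of 80 sperm genes 9 reached the level for a test and 2 of them fell, spe-48 and spe-15. Of 9 adult genes 1 reached it and was not called, and the summed adult level was at most 4.58 scaled TPM in the 4 libraries.

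Of 194 innate immunity genes 23 rose, 11.9% beside the 11.5% of all genes, and 6 fell. Of 40 intracellular pathogen response genes 10 rose, or 25%, and none fell. The median change of the 40 was 0.30, beside 0.27 in CA1200. None of the 40 was called in the difference from CA1200. In CA1200, where 1.29% of all genes were higher, 6 innate immunity genes and 1 intracellular pathogen response gene rose. The gene irg-5, a marker of infection response, rose from 52.6 and 33.9 to 554 and 308, and in CA1200 from 107 and 29.3 to 249.8 and 85.5. Its change of 3.26 ± 0.28 exceeded that of CA1200 by 1.89 ± 0.39 (adjusted p = 0.0346). The lysozyme gene ilys-2 rose from 0.197 and 0.131 to 3.94 and 35.9, a change carried mostly by replicate 2, and the cullin gene cul-6 from 2.03 and 1.04 to 5.73 and 3.45. Of 19 stress and immediate transcription factor genes 4 fell and 1 rose, the largest fall being in egl-43, from 35.3 and 19.1 to 13.7 and 8.15, and the rise in zip-10, from 20.3 and 13.1 to 50.8 and 49.4. Of 43 oxidative phosphorylation genes 4 fell and 1 rose, with cox-18, an assembly factor, from 13.1 and 12.9 to 3.32 and 3.92.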

How the data were processed

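The authors' TPM and FPKM values per gene and library were used as deposited, and per the submitters' processing notes DESeq2 1.30.0, Cufflinks 2.2.1, HTSeq 0.13.5, HISAT2 2.2.1 and CASAVA 1.8 were among the tools, with their roles and the genome build not stated. The authors' deposited comparison table supplied log2 fold changes and p-values adjusted by their tool, made with DESeq2 per the file headers, and was used only to count shared calls. FPKM served only to estimate the number of fragments, from the size of its smallest steps. Mitochondrial genes were listed at 0, and genes marked as failed numbered 1 to 16 a library.

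TPM was scaled by median ratios between libraries, and log2(scaled TPM + 1) was fitted with limma 3.58.1 (R 4.3.3) with a trend in the variances, for 14271 of 20390 genes with at least 1 TPM in at least 2 libraries. The fit had a mean per strain and time and a block per replicate series, with 9 residual degrees of freedom over 27 libraries. The labels describe each culture as divided between plates, and the difference between replicates correlated over genes between 0 and 120 min with r = 0.63 in AM05 and 0.38 in CA1200. Tables were handled with Python 3.11.15, pandas 2.3.3 and numpy 2.4.6, and the fit was checked on simulated data. Symbols and exon lengths came from the annotation WBcel235, which matched 19903 genes by name and gave a length for 14003 of the tested genes, and no coordinates were taken from it.

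Genes named were the 15 largest rises and falls that met the criteria given with them, the 5 largest X-linked rises that met them (no X-linked fall did), the 8 longest, up to 4 called members of each list by size of change, top-1, top-2, dpy-27, rhy-1 and dnj-13. Other genes are named after their values were seen. The members and lists were chosen with earlier results of these data known. Alternatives were the fit without the block, other pseudocounts, scalings (TMM factors computed on TPM) and filters, subsets of libraries, variances without a trend and each library left out. Promoter and protein sequences are not used here.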

Additional observations from a re-analysis of the deposited data

Results flagged for a closer look

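The change over 120 min differed between strains by a test of the difference itself (limma, adjusted p under 0.05), with 2 libraries a group. It was more positive in the TOP-1 strain than in CA1200 for 79 genes and more negative for 171, and more positive than in the TOP-2 strain for 78 genes and more negative for 160. Values in brackets are the TOP-1 change minus the CA1200 change on the log2 scale.

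Among the genes that rose, the difference was positive in nssp-85 (1.75), K01A12.4 (1.63), T20D4.12 (2.67), cht-1 (2.32) and sto-3 (2.86), then in rab-11.2 (2.18), clc-32 (2.36), C30B5.6 (1.63), cpi-1 (1.53) and T20D4.11 (1.57) and in T28A11.16 (1.58), mab-23 (1.68), C04A11.5 (2.41), tbb-6 (2.12) and C54D1.7 (1.17). Of genes named from a list, the immune gene irg-5 had 1.89 and the collagen gene col-96 had 3.05.

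Among the genes that fell, the difference was negative in phkg-1 (-1.84), Y48E1B.3 (-2.10), gbf-1 (-2.11), tcc-1 (-1.45) and tsct-2 (-1.89), in Y64G10A.7 (-1.79), herc-1 (-1.53), uaf-1 (-1.74), ddl-2 (-1.94) and emb-4 (-1.29) and in snf-6 (-1.84), hpo-29 (-1.31), ebp-3 (-1.65), noa-1 (-1.59) and slo-1 (-1.86). The long genes daf-2 (-1.75), npp-8 (-1.16), Y69A2AR.16 (-1.23), Y92H12A.5 (-1.31) and tat-1 (-1.16) followed, and so did dpy-21 (-1.56), mlt-11 (-2.66), ptr-18 (-2.92), vab-10 (-1.56) and spe-48 (-0.98) from the lists. Of the 171 genes 119 were among the longest 10% and 2 were X-linked, and of the 79 genes 0 and 22.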

How the results depend on the processing

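Of the 149 named genes called, none changed sign under the 13 or 14 alternatives run for each. Fitted without the replicate block, 119 rose and 159 fell, and none was called in the difference from CA1200 in either direction (0 and 0). With TPM as deposited the genes that differed from CA1200 numbered 17 more positive and 38 more negative, and with only AM05 and CA1200 libraries, or without the series that stood apart, 99 were more negative. Leaving out single libraries gave 798 to 848 higher, 782 to 1002 lower, 3 to 39 more positive than CA1200 and 5 to 105 more negative. X minus autosomes, 0.21, was 0.29 with a pseudocount of 0.1, 0.11 with 5, 0.15 with no filter and 0.25 with TPM of at least 5, and 0.18 to 0.25 with a library left out. Long minus other genes, -0.50, was -0.58 and -0.32 with those pseudocounts, -0.43 with no filter and -0.61 for the longest 5%. Chosen after seeing the data, it was -0.56 on autosomes only and -0.16 on X only. Outside the settings whose construction shows it (fewer libraries or genes), the cause was not tested. Of 149 named genes called, 78 were called with each library left out and 45 under all alternatives. Of the 35 named for a difference from CA1200 or their span, 6 to 21 kept that difference with a library left out, and 5 kept it throughout. The depth behind genes near 1 TPM, and 2 libraries a side, limit the precision.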

Other observations

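Genes that cycle with the larval stage differed between the replicates of the TOP-1 strain at each time. The hedgehog-related gene wrt-10, of the hypodermis, stood at 25.1 and 484 without auxin and 5.9 and 87.1 after 120 min, so that replicate 2 was higher at both times and wrt-10 was lower after 120 min in both pairs. The related gene wrt-2, on X, stood at 27.6 and 421 and then 9.09 and 213, and grd-10 in the other order of replicates at 802 and 78.8 and then 1071 and 263. In CA1200 wrt-10 was at 221 and 306 and then 61.9 and 152. Of the abu and pqn genes of the pharynx list, pqn-13 was at 13.1 and 14.2 and then 0.287 and 11.9. Nearly all of the fall of pqn-13 was in replicate 1, while pqn-87 was at 94.2 and 76.2 and then 33.6 and 37.9 with the 2 sides apart. The 71 genes of the pharynx list had medians of -0.78 in the replicate 1 pair and 0.54 in the replicate 2 pair.

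The genes phy-2, egl-9 and mua-3 were higher in replicate 2 without auxin. They were lower after 120 min in both pairs, by more in replicate 2. The collagen prolyl hydroxylase gene phy-2 stood at 33.4 and 119 and then 13.4 and 23.3, the HIF prolyl hydroxylase gene egl-9 at 26.9 and 45.1 and then 17 and 18.1, and the hemidesmosome gene mua-3 at 35.6 and 135 and then 14.5 and 29.5. The part of larval stage in these values was not tested.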
